A study of Mus musculus with 12 samples.

Results

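The genes described here encode the carriers that move amino acids, and the transmitters made from them, across cell membranes. They were taken by symbol from the solute carrier families SLC1, SLC3, SLC6, SLC7, SLC36, SLC38 and SLC43, using probe sets whose platform annotation names exactly 1 gene, and each gene was read from its probe set with the highest mean signal. This gave 63 genes of 18193 on the array: 7 of SLC1, 2 of SLC3, 21 of SLC6, 16 of SLC7, 5 of SLC36, 9 of SLC38 and 3 of SLC43. Of the 63, 3 carry a transporter's name with the suffix "os" (Slc7a6os, Slc36a1os and Slc6a19os), which marks a gene on the opposite strand and not a transporter, so 60 are transporters. Slc38a8 and Slc38a11 were not analysed here.

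The samples came from CD1 mouse embryos, an outbred strain, at embryonic day 9.5, with no treatment beyond the enzyme (pancreatin) used to loosen the tissue. The posterior neural tube, the forerunner of the spinal cord, was freed of surrounding tissue with needles and cut into 6 pieces, numbered part 1 to part 6. Each part was hybridised to 2 Affymetrix arrays, biological replicates 1 and 2, from 2 embryos, giving 12 arrays in all. The labels do not say that the replicate number is the embryo. Below, embryo 1 and embryo 2 stand for replicates 1 and 2. The labels do not say which number is the caudal end, so positions are given by part number only.

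Amino acid carriers differ in what they move and in what drives them. The SLC1, SLC6 and SLC38 proteins are mostly driven by the sodium gradient and can concentrate their substrates, whereas many SLC7 proteins are exchangers that trade one amino acid for another and reach the cell surface only when paired with a heavy chain of the SLC3 family. In mature nervous tissue some SLC1 and SLC6 members clear glutamate, GABA, glycine and monoamines from the synapse. In an embryonic neural tube, which holds mostly dividing progenitors, the same families supply amino acids, taurine and creatine for growth.

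Along the 6 parts the clearest course belonged to Slc7a7, the light chain y+LAT1, whose signal fell with part number to about the array median, with a mean 13.9 times as high in part 1 as in part 6. Slc1a4, Slc43a3, Slc7a3 and Slc38a6 also fell with part number, by smaller amounts, and no transporter passed as rising with it unless the embryo was added to the fit, when Slc7a2 did. Slc7a1, a carrier of arginine and lysine, was higher in part 6 than in part 1, and its 2 arrays of part 1 were the lowest of all 12. With the embryo in the fit, Slc6a8 and Slc36a4 also passed as falling. Without it, the other genes tested passed none of these tests. Most of the carriers for released transmitters had signals too low to be tested.

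Before the values, the short promoter windows that hold a binding motif are given, to show what letters lie near the start sites of the genes whose signals are described. The first motif was the C/EBP-ATF response element, through which the amino acid starvation factor ATF4 is known to act, searched as TGATGNAA on both strands. The second was the TCF/LEF motif of canonical Wnt signalling, searched as CTTTGAT on both strands, and no gene of the group held both. Promoters run from 250 bases before each RefSeq start site to 50 after it, on build GRCm38.p6, and 46 of the 63 genes matched the table, with 67 promoters. The response element was present in 5 of these 67 (7.46%), in the genes Slc1a4, Slc6a21, Slc7a11 and Slc7a7, against 3.97% of all 32851 promoters in the table, and in 7 of 22 promoters of a list of ATF4 and its targets. Overlapping promoters of Slc7a7 share the same site, which is therefore counted more than once. By gene, the element was present in 4 of 46 (8.7%), against 4.51% of all genes in the table. The TCF/LEF motif was present in 5 of the 67 (7.46%), against 3.73% of all promoters. Each window below is 30 bases in the gene's own direction, 5′ to 3′, with the motif in capitals. The first pair are fallers, the next is the cystine carrier Slc7a11, a known ATF4 target, and the last is Slc7a1. Of the other fallers, Slc38a6 held neither motif, and Slc43a3 and Slc7a3 had no promoter in the table. Slc7a11 had a mean signal of 5.96 and was not tested.
Slc7a7, chr14:54417927-54417956, minus strand: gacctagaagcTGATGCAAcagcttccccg
Slc1a4, chr11:20332699-20332728, minus strand: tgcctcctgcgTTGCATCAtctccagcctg
Slc7a11, chr3:50443642-50443671, minus strand: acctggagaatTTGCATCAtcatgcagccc
Slc7a1, chr5:148392845-148392874, minus strand: tgttcccttcgATCAAAGagggagtggggc
In the window of Slc7a7 the motif begins 1 base before an annotated start site, and the same letters begin 243 bases before another. The motif begins 4 bases before the start site in the window of Slc1a4, 47 in that of Slc7a11 and 48 in that of Slc7a1. The other TCF/LEF matches were in Slc1a2, Slc38a10, Slc38a9 and Slc6a16. A match is a description of the letters, not a measured binding site.

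The signals were tested in 36 of the 63 genes, those whose probe set exceeded its own array's median signal in at least 2 of the 12 arrays. This was 57.1% of them, against 66.4% of all genes. Of the 36, 25 were above the array median in all 12 arrays and 11 in 2 to 11 of them, and 35 of the 36 are transporters. The deposited signals are linear intensities on a common scale. The trend was measured as the slope of log2(signal + 4.43) per part, fitted with limma, with p-values adjusted by the Benjamini-Hochberg method over all 12077 genes tested and a threshold of 0.05.

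By slope, 5 of the 36 fell (13.9%) and 0 rose. Over all genes tested, 12.7% passed the slope test, 7.09% falling and 5.66% rising, so without the embryo in the fit the share of transporter genes with a trend in either direction was near the background. With the embryo as a block, 7 of the 36 fell and 1 rose (22.2% in all), against 15% of all genes, 8.44% falling and 6.61% rising. At an unadjusted limma p under 0.05, 12 of the 36 had a slope in either direction, and 26.6% of all genes did. The median slope was -0.02 log2 per part over the 36 genes and -0.01 over all genes, and the median size of the slope was 0.06 and 0.05. Between the ends of the series, 4 of the 36 (11.1%) differed between part 6 and part 1, against 9.09% of all genes: 1 was higher in part 6, where 4.16% of all genes were, and 3 were lower, where 4.93% were. The F test for any difference among the 6 parts passed in 3 of the 36 (8.33%), against 4.9% of all genes.

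**Figure D1:**
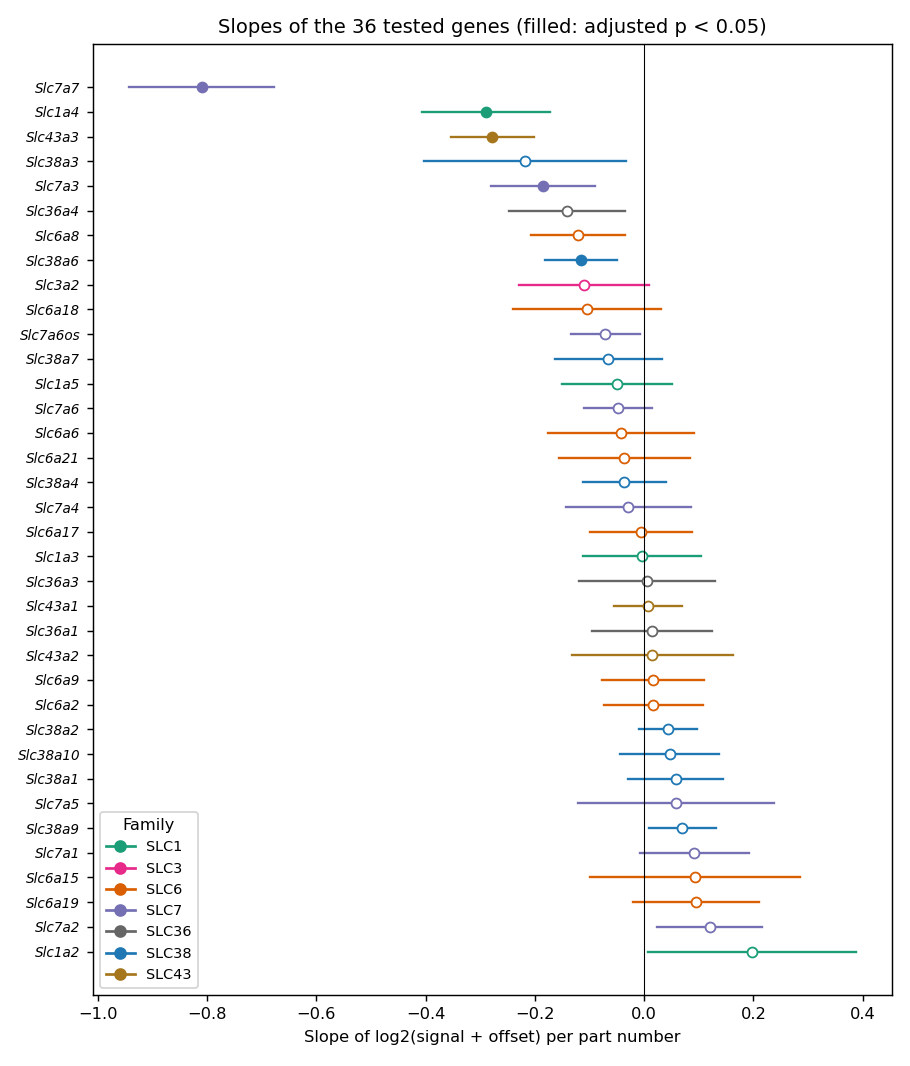
Slope of the log2 signal per part (horizontal axis, log2 units per part) for each of the 36 genes tested, coloured by family, with the bar giving its 95% interval from limma and the filled markers those that passed at an adjusted p of 0.05. Slc7a7 lies at -0.81, apart from the other fallers between -0.29 and -0.12, and no gene that passed lies above 0.

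The heavy chain and its light chains come first. Slc7a7 encodes y+LAT1, which with the heavy chain exports arginine and lysine in exchange for neutral amino acids. Its signal in replicates 1 and 2 was 281 and 255 in part 1, 256 and 289 in part 2, 159 and 151 in part 3, 78.8 and 48.0 in part 4, 31.2 and 23.0 in part 5, and 20.9 and 17.6 in part 6. Both arrays of parts 1 and 2 were above both of part 3, and from there each part lay below the one before it with no overlap. The mean went from 268 ± 18.4 (SD, n = 2) in part 1 to 19.3 ± 2.32 (SD, n = 2) in part 6. The part 6 signals lie at about the array medians of 16.7 to 19.1, where a signal cannot be told from background, so the ratio of 13.9 describes the deposited signals and is not an exact fold of the transcript. The slope was -0.81 ± 0.06 log2 per part (SE, limma adjusted p = 2.53e-06), and part 6 minus part 1 was -3.53 ± 0.24 (SE, limma adjusted p = 2.47e-05). The slope was -0.77 in embryo 1 and -0.85 in embryo 2. A second, dimmer probe set of Slc7a7 had a slope of -0.41, with signals of 22.2 and 30.2 in part 1 and 7.96 and 6.11 in part 6. The slope passed under all 25 alternative settings tried, each embryo alone included, with values from -0.95 to -0.61.

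The heavy chain and the other light chains tested did not pass the slope test. Slc3a2, the heavy chain CD98 itself, read 452 and 329 in part 1, 393 and 496 in part 2, 534 and 406 in part 3, 358 and 471 in part 4, 385 and 286 in part 5, and 385 and 194 in part 6. The lowest of these came from part 6 and the highest from part 3, the replicates of part 6 were far apart, and parts 1 and 6 overlapped. Its slope was -0.11 ± 0.06 log2 per part (SE, limma adjusted p = 0.227; 95% interval -0.23 to 0.01). Slc7a6, which encodes the related exchanger y+LAT2, read 849 and 779 in part 1, above all 10 other arrays, which lay between 567 and 741. Its slope was -0.05 ± 0.03 (SE, limma adjusted p = 0.332). A second probe set of Slc7a6 read 428 and 267 in part 1 and between 244 and 371 in the other parts, so part 1 did not stand apart there. The opposite-strand gene Slc7a6os had a slope of -0.07 (limma adjusted p = 0.137).

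Slc7a5 encodes LAT1, the exchanger that brings leucine and other large neutral amino acids into growing cells. It read 132 and 83.7 in part 1, 242 and 277 in part 2, 231 and 368 in part 3, 199 and 255 in part 4, 206 and 206 in part 5, and 154 and 187 in part 6. Both arrays of part 1 were the lowest of the 12, and those of part 6 came next. The mean was 108 ± 33.9 (SD, n = 2) in part 1 and 260 ± 24.8 (SD, n = 2) in part 2. Part 2 minus part 1 was 1.27 ± 0.28 log2 (SE; 95% interval 0.65 to 1.89), with a limma adjusted p of 0.140 over all genes, which missed the threshold. Over the 21 alternative settings that adjusted p ran from 0.0526 to 0.480, and the difference stayed positive, from 0.95 to 1.58. The F test for Slc7a5 gave an adjusted p of 0.0886, and the slope was 0.06 ± 0.08 (SE, limma adjusted p = 0.723).

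**Figure D2:**
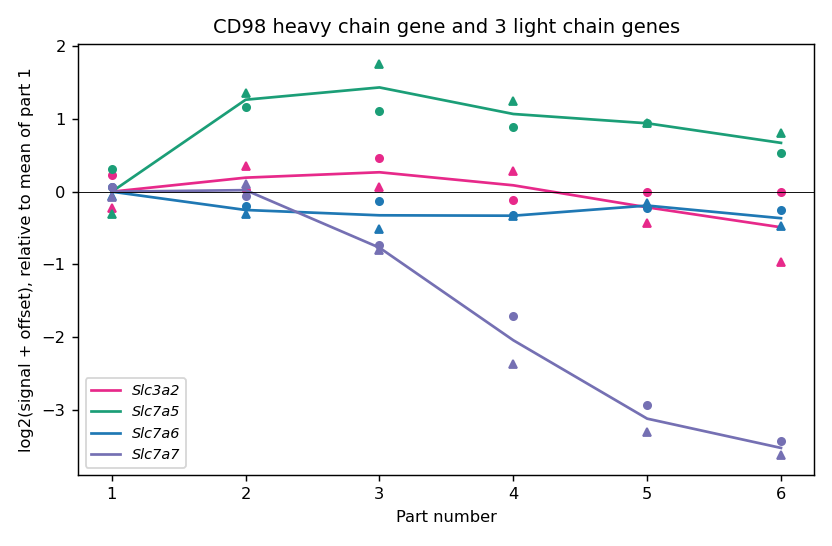
log2(signal + 4.43) minus the gene's mean in part 1 (vertical axis, log2 units) by part number (horizontal axis) for the heavy chain Slc3a2 and the light chains Slc7a5, Slc7a6 and Slc7a7, with circles for replicate 1, triangles for replicate 2 and a line through the mean of the 2 arrays. The line of Slc7a7 ends at -3.53 in part 6, that of Slc7a5 lies at 1.27 in part 2, and the values are differences within a gene and not levels between genes.

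The cationic amino acid carriers, which work without a heavy chain, included 1 gene that was higher in part 6 and 1 that fell. Slc7a1, the arginine and lysine carrier CAT1 of most dividing cells, read 289 and 335 in part 1, 495 and 579 in part 2, 479.6 and 513 in part 3, 369 and 510.1 in part 4, 479 and 403 in part 5, and 543 and 589 in part 6. Both arrays of part 1 were below every other array, and both of part 6, with the higher array of part 2, were the highest. Slc7a1 was higher in part 6 than in part 1 by 0.85 ± 0.20 log2 (SE, limma adjusted p = 0.0281), a 1.81-fold difference of the means. The call rests on single arrays: the adjusted p was 0.0794 without replicate 1 of part 1, 0.0955 without replicate 1 of part 6 and 0.167 without replicate 2 of part 6, and it was 0.0595 with no filter on low signals. Its slope of 0.09 ± 0.05 (SE) did not pass (limma adjusted p = 0.230), and without both arrays of part 1 it was -0.0015. A second probe set of Slc7a1 read 172 and 138 in part 1 and between 185 and 272 in the other parts.

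Slc7a3, the cationic carrier CAT3, found mainly in embryonic and neural cells, read 77.9 and 43.4 in part 1, 72.0 and 57.4 in part 2, 45.9 and 60.4 in part 3, 37.95 and 37.1 in part 4, 41.4 and 35.4 in part 5, and 38.3 and 26.1 in part 6. The arrays of parts 4 to 6 all lay below those of parts 1 to 3, though the lower array of part 1 was close to them. The slope was -0.19 ± 0.04 log2 per part (SE, limma adjusted p = 0.0139). Leaving out replicate 1 of part 1 ended the call (adjusted p = 0.0577), as did leaving out replicate 2 of part 6 (adjusted p = 0.0581). Slc7a2, an inducible cationic carrier, had a slope of 0.12 (limma adjusted p = 0.102), which passed only when the embryo was added as a block (adjusted p = 0.0407). It read between 11.6 and 36.2, and the highest value was in part 6. The other probe sets of Slc7a2 had slopes of -0.08, -0.06 and -0.09. Their means were 7.36, 6.97 and 2.82, below the array medians. Slc7a4, an orphan of this branch, had a slope of -0.03.

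In the SLC1 family, 1 of the 4 genes tested fell. Slc1a4 encodes ASCT1, a sodium-dependent exchanger of serine, alanine and cysteine. It read 393 and 228 in part 1, 155 and 166 in part 2, 156 and 107 in part 3, 118 and 101 in part 4, 96.5 and 94.3 in part 5, and 109 and 91.0 in part 6. Both arrays of part 1 were above the other 10, the replicates of part 1 were far apart, and the arrays of part 6 overlapped those of parts 4 and 5. The slope was -0.29 ± 0.05 log2 per part (SE, limma adjusted p = 0.00318), and part 6 minus part 1 was -1.55 ± 0.27 (SE, limma adjusted p = 0.00689), a 3.10-fold lower mean. The other probe sets of Slc1a4 had slopes of -0.13 and -0.11, and with the mean over its probe sets the slope of -0.18 had an adjusted p of 0.0569. The call between the ends was lost in that setting (adjusted p = 0.104) and without replicate 2 of part 6 (0.0617), and the slope call was lost in each embryo alone (0.0574 and 0.0790).

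Slc1a5, the glutamine exchanger ASCT2, read between 60.4 and 125 and had a slope of -0.05 (limma adjusted p = 0.558). The glial glutamate carriers Slc1a2 and Slc1a3 (GLT-1 and GLAST) were dim. Slc1a2 lay between 2.17 and 34.9 and was above the array median in 4 arrays. Slc1a3 lay between 12.6 and 28.8 and was above the median in 8. The glutamate carriers Slc1a1, Slc1a6 and Slc1a7 were not tested, with mean signals of 5.78, 2.98 and 7.21.

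The SLC6 family had 9 genes tested of 21. Without the embryo in the fit none passed any of the tests across parts, and with it Slc6a8 passed by slope. Slc6a6 encodes the taurine carrier and had the highest mean signal of the family. It read 142 and 131 in part 1, 213 and 252 in part 2, 172 and 282 in part 3, 182 and 258 in part 4, 137 and 137 in part 5, and 149 and 156 in part 6. All 6 arrays of parts 2 to 4 were above all 6 of parts 1, 5 and 6. This arrangement was noticed in the values, and the F test gave an adjusted p of 0.247. A second probe set of Slc6a6 read 88.3 and 84.0 in part 1 and between 92.3 and 191 in the others, so it shared the low part 1 but not the low parts 5 and 6.

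Slc6a8, the creatine carrier, read 142 and 111 in part 1, 130 and 132 in part 2, 162 and 129 in part 3, 144 and 96.3 in part 4, 98.2 and 85.7 in part 5, and 96.0 and 81.0 in part 6. All 4 arrays of parts 5 and 6 were below every array of parts 1 to 3. The slope was -0.12 ± 0.04 (SE, limma adjusted p = 0.0651) and passed with the embryo as a block (adjusted p = 0.0315). A second probe set of Slc6a8 had a slope of -0.05. It read 77.5 and 35.8 in part 1 and 57.8 and 41.5 in part 6, so parts 5 and 6 did not lie apart there. Slc6a9, the glycine carrier GlyT1, read 46.9 and 50.1 in part 1 and between 52.7 and 90.3 in the other parts, with a slope of 0.02. A second, dimmer probe set of Slc6a9 read 12.9 and 33.2 in part 1 and between 9.21 and 37.5 in the others. Slc6a2, the noradrenaline carrier, was listed between 36.8 and 62.6 with a slope of 0.02, but its other 3 probe sets had mean signals of 11.2, 9.57 and 2.21. Slc6a15 and Slc6a17, carriers of neutral amino acids found in neurons, had slopes of 0.09 and -0.01.

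The carriers that clear the other classical transmitters were at low signal. Slc6a3 and Slc6a4, for dopamine and serotonin, had means of 8.88 and 2.85, and Slc6a5, the neuronal glycine carrier GlyT2, had a mean of 6.87. Slc6a11, Slc6a12 and Slc6a13, which take up GABA or betaine, had means of 3.94, 2.51 and 1.85. None of these exceeded its array's median on 2 arrays, and such signals cannot be told from background on these arrays. In all 27 genes of the group were not tested for this reason. Their mean signals lay between 0.932 and 14.4, and 24 of them were above the median on no array. The other 3, Slc7a8, Slc7a10 and Slc38a5, exceeded it on 1 array. Among the 27 the smallest adjusted p in a fit without the filter belonged to the light chain Slc7a8 (LAT2), with a slope of 0.27 (limma adjusted p = 0.0559).

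The SLC38 family held the highest signals of the sodium-coupled neutral amino acid carriers, and 1 of the 8 genes tested fell. Slc38a6 encodes a glutamine and glutamate carrier. It read 152 and 115 in part 1, 123 and 101 in part 2, 97.4 and 94.2 in part 3, 90.3 and 110.1 in part 4, 86.2 and 107 in part 5, and 77.0 and 83.5 in part 6. Both arrays of part 6 were the lowest of the 12, while parts 3, 4 and 5 overlapped. The slope was -0.12 ± 0.03 (SE, limma adjusted p = 0.0252). The slope was -0.18 in embryo 1 and -0.05 in embryo 2, and the difference between them had an unadjusted limma p of 0.0309. The slope call ended when replicate 1 of part 1 (adjusted p = 0.0918), replicate 1 of part 6 (0.0804) or replicate 2 of part 6 (0.0578) was left out.

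Slc38a2 (SNAT2), the carrier that cells raise when amino acids run short, read 1862 and 1710 in part 1 and between 1866 and 2366 elsewhere. Slc38a1 (SNAT1), a glutamine carrier, read 746 and 575 in part 1 and between 838 and 1123 elsewhere. In both genes the arrays of part 1 were the lowest, and the slopes were 0.04 (limma adjusted p = 0.290) and 0.06 (limma adjusted p = 0.407). Slc38a4 (SNAT4) read 146 and 145 in part 1 and between 84.7 and 126 elsewhere, so here part 1 was highest. Slc38a9, a lysosomal protein that reports arginine to the growth kinase mTORC1, read between 60.2 and 91.8 with a slope of 0.07 (limma adjusted p = 0.136). Slc38a3, above the array median in 3 arrays only, had a slope of -0.22 (limma adjusted p = 0.121).

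Of the SLC36 carriers, which move small amino acids with protons, often out of lysosomes, none of the 3 tested passed. Slc36a1 read 32.4 and 29.8 in part 1 and between 34.7 and 59.7 elsewhere. Its slope was 0.01, and it turned to -0.10 without both arrays of part 1. Slc36a4 had a slope of -0.14 (limma adjusted p = 0.0796), which passed with the embryo as a block (adjusted p = 0.0279).

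Slc43a3 was the second clearest faller. It belongs to a family of carriers that work without a gradient of ions, and is itself known for moving purine bases. It read 68.6 and 66.6 in part 1, 66.6 and 48.4 in part 2, 42.4 and 41.0 in part 3, 35.7 and 24.6 in part 4, 35.6 and 28.8 in part 5, and 24.2 and 21.1 in part 6. Parts 1 and 2 lay above all later arrays, both arrays of part 6 were the lowest, and replicate 1 was the higher array in all 6 parts. The slope was -0.28 ± 0.04 log2 per part (SE, limma adjusted p = 0.000169), and part 6 minus part 1 was -1.41 ± 0.21 (SE, limma adjusted p = 0.00338), a 2.98-fold lower mean. The slope passed under all 24 alternative settings. The part 6 signals of Slc43a3 lie only a little above the array medians of 16.7 to 19.1, so the fold describes the deposited signals. The large neutral amino acid carriers of the family, Slc43a1 and Slc43a2 (LAT3 and LAT4), had slopes of 0.01 for both, with adjusted limma p-values of 0.906 and 0.919.

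**Figure D3:**
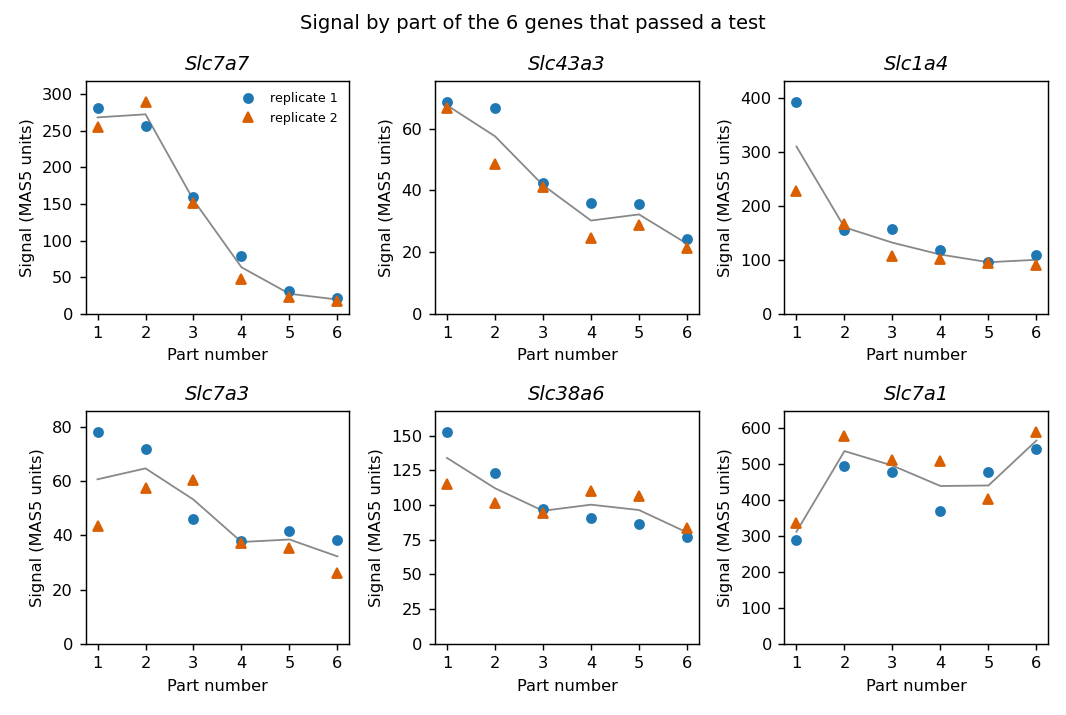
Signal (vertical axes, linear intensity from 0) by part number (horizontal axes) for the 6 genes that passed a limma test without the embryo in the fit. Circles are replicate 1, triangles replicate 2, and a line runs through the means. Slc7a7, Slc43a3, Slc1a4, Slc7a3 and Slc38a6 each have their lowest array in part 6, and Slc7a1 has its lowest, 289 and 335, in part 1.

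Because each piece is bulk tissue, fewer cells of a type and less RNA per cell cannot be told apart, and other cell types changed along the same axis. Over all genes tested, 7.09% fell by slope and 5.66% rose. Of the caudal progenitor markers, 6 of 7 tested fell, with a summed signal of 6377 and 6898 in part 1 and 1323 and 1226 in part 6. Of the presomitic and somite mesoderm markers, 5 of 9 fell, and their sum was 5666 and 4070 in part 1 and 289 and 249 in part 6. Of the surface ectoderm markers, 7 of 10 fell, with sums of 1493 and 525 in part 1 and 363 and 437 in part 6. Neural progenitor markers rose in 9 of 11, from sums of 1143 and 1058 to 5907 and 6147. In part 1 the array with the higher Slc1a4, Slc7a3 and Slc38a6 signals, replicate 1, was also the one with the higher mesoderm and ectoderm sums. Its caudal progenitor sum was the lower one. This was noticed in the values of 1 pair of arrays, and part 2 was mixed. There replicate 1 had the higher mesoderm sum (4047 and 2302) and the lower ectoderm sum (640 and 884). Its Slc1a4 signal was lower (155 and 166), and its Slc7a3 and Slc38a6 signals were higher. Of 7 neuron markers 2 rose and 1 fell, of 7 neural crest markers 2 rose, and of 3 notochord markers 1 rose and 1 fell. No marker of endothelium (2 of 8 tested), blood (6 of 8 tested) or gut (1 of 8 tested) passed the slope test. The blood sum, however, ranged from 62.7 to 9969 across arrays, and these extremes were replicates 1 and 2 of part 1. In part 6 it was 105 and 6304. The part these tissues play in the falls of Slc7a7, Slc43a3, Slc1a4, Slc7a3 and Slc38a6 was not tested.

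The largest share of differences between neighbouring parts was at the first step, from part 1 to part 2. After adjustment 0 of the 36 genes passed limma at any of the 5 steps, where 0.24% of all genes passed at the first step, 0.19% at the second and at most 0.00828% later. At an unadjusted limma p under 0.05 the first step held 13 of the 36 (36.1%), against 10.8% of all genes, and the later steps held 2, 1, 4 and 0, against 5.03%, 3.23%, 3.63% and 3.81% of all genes. Of the 13, 8 (22.2%, against 5.71% of all genes) were higher in part 2. These were Slc7a5, Slc7a1, Slc43a2, Slc6a6, Slc36a1, Slc1a3, Slc6a9 and Slc38a1, with differences of 1.27, 0.77, 0.82, 0.74, 0.68, 0.68, 0.67 and 0.66 log2. The other 5 (13.9%, against 5.07% of all genes) were lower in part 2. These were Slc38a3, Slc1a4, Slc6a18, Slc38a7 and Slc38a4, with differences of -1.14, -0.88, -0.84, -0.53 and -0.46 log2. None of these can be called on its own, and they are named here after their values were seen. The differences are those of the chosen probe sets. A second probe set of Slc1a3 read 13.9 and 31.1 in part 1 and 15.7 and 19.7 in part 2. That of Slc6a9 read 12.9 and 33.2 in part 1 and 15.1 and 26.3 in part 2. Second probe sets of Slc7a1, Slc43a2, Slc6a6 and Slc38a1 had both part 2 arrays above both part 1 arrays.

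A count made after the values were seen describes the same end of the series. In 6 of the 36 genes (16.7%) both arrays of part 1 were below all 10 others, against 7.05% of all genes: Slc7a1, Slc7a5, Slc6a9, Slc36a1, Slc38a1 and Slc38a2. In 4 (11.1%), against 7.59% of all genes, both were above all others: Slc1a4, Slc7a6, Slc38a4 and Slc6a18. These lists hold for the chosen probe sets. A second probe set of Slc6a9, of Slc7a6 and of Slc1a4 did not have both part 1 arrays beyond the others. Neither did a dimmer probe set of Slc38a2, at 21.2 and 37.9 in part 1, nor a dim probe set of Slc7a1 with a mean of 7.31. Slc6a18 had a mean of 15.3 and was above the array median in 3 arrays only. With quantile normalization between the arrays the split turned to 4 below and 6 above, so which of these is more frequent depends on the scaling. At the other end, both arrays of part 6 were below all others in 3 of the 36 (8.33%), Slc7a7, Slc43a3 and Slc38a6, against 3.98% of all genes, and above all others in 0, against 2.77%. The arrays of parts 1 and 6 did not overlap in 25 of the 36 (69.4%), against 46.9% of all genes.

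**Figure D4:**
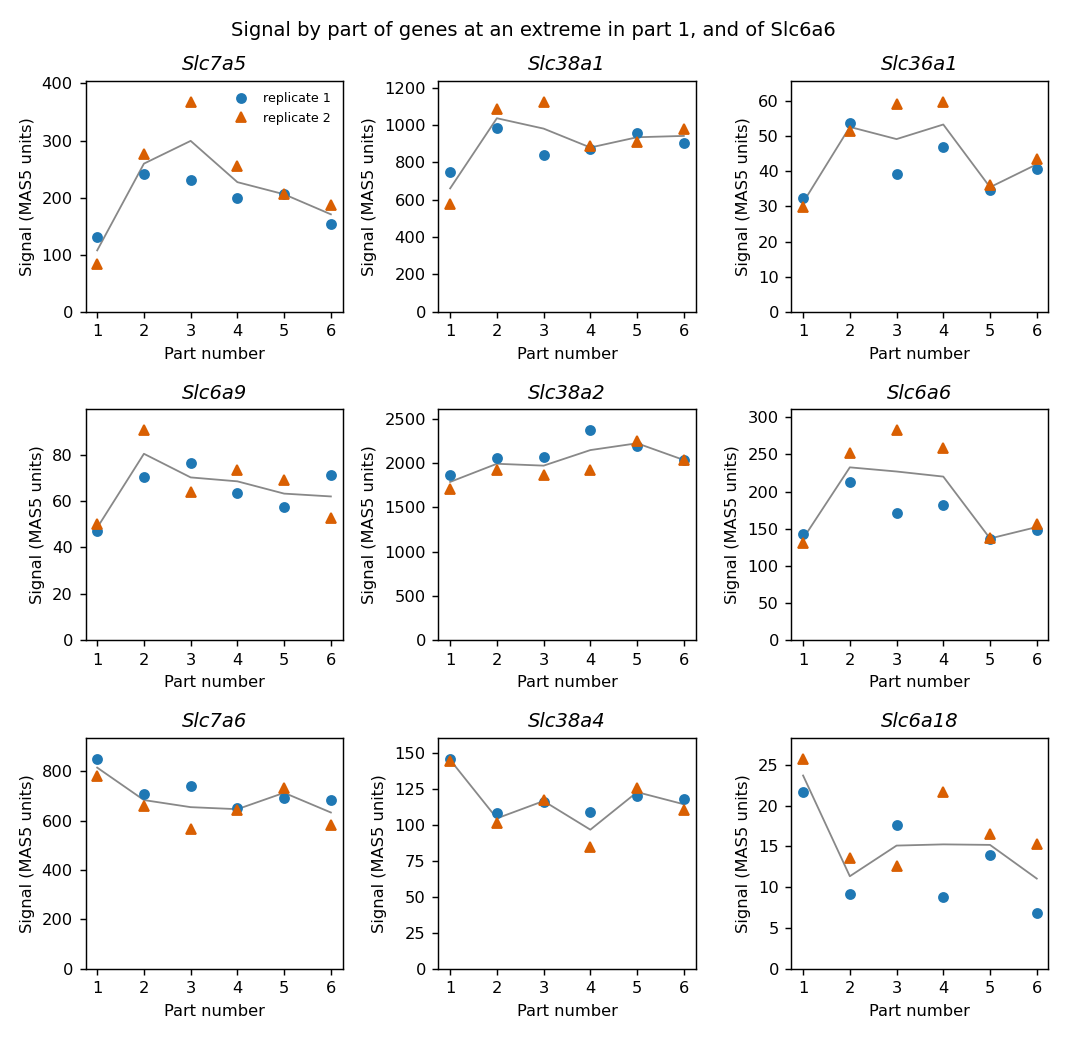
Signal (vertical axes, linear intensity from 0) by part number (horizontal axes) for 8 of the genes in which both arrays of part 1 were beyond all others, and for Slc6a6, in which they were not, with circles for replicate 1, triangles for replicate 2 and a line through the means. In Slc7a5 the part 1 arrays read 132 and 83.7 and the other 10 lie between 154 and 368, whereas in Slc7a6 the part 1 arrays read 849 and 779 and the others lie between 567 and 741.

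Most genes that work beside the transporters did not pass the slope test. For each list below, the share over all genes tested was 12.7% passing, 5.66% rising and 7.09% falling. Among 10 tested genes of transmitter synthesis, breakdown and vesicle loading, 3 rose and 1 fell. Gad1, the enzyme that makes GABA from glutamate, fell from a mean of 732 ± 364 (SD, n = 2) in part 1 to 13.8 ± 0.418 (SD, n = 2) in part 6, a slope of -1.12 ± 0.08 (SE, limma adjusted p = 8.73e-07). The part 6 mean lies below the array medians of 16.7 to 19.1, where a signal cannot be told from background. The mitochondrial glutamate and GABA enzymes Glud1 and Aldh5a1 rose by 0.10 and 0.12 log2 per part, and Ddc, which decarboxylates precursors of dopamine and serotonin, rose by 0.22. Of 14 receptor genes for GABA, glycine and glutamate, 3 rose (Gphn, which anchors such receptors, Gabrg1 and Grik3) and 1, Gabrb2, fell by 0.33 log2 per part. Gabrg1 read 3.79 ± 2.26 (SD, n = 2) in part 1 and 21.5 ± 6.18 (SD, n = 2) in part 6, near the array median.

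Among 32 tested genes of amino acid sensing by mTORC1, 2 rose and 1 fell. Castor1, an arginine sensor, had a slope of -0.28 ± 0.05 (SE, limma adjusted p = 0.00354). Rragd, a GTPase that brings mTORC1 to the lysosome, rose by 0.15 log2 per part, and Seh1l by 0.09. Among 16 tested genes of the ATF4 response 1 rose and 2 fell: Vldlr had a slope of 0.18, the mTORC1 inhibitor Ddit4 one of -0.26 and the cystathionine enzyme Cbs one of -0.12, while Atf4 itself had a slope of 0.06 (limma adjusted p = 0.154). None of the 9 genes of glycine cleavage and serine synthesis passed. Of 5 glutathione genes Gclc, the catalytic subunit of the limiting enzyme, rose, by 0.11. Of 5 creatine and taurine genes the brain creatine kinase Ckb rose, by 0.28, and Gamt, the last enzyme of creatine synthesis, fell, by 0.12.

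No slope differed between embryos 1 and 2, taken from the replicate number, after adjustment over all genes (limma, 0 of 12077 genes). At an unadjusted limma p under 0.05, 1 of the 36 differed, Slc38a6, against 6.62% of all genes. Replicate 1 was above replicate 2 in all 6 parts in 4 of the 36 (11.1%), namely Slc38a7, Slc38a10, Slc43a3 and Slc6a15, against 8.93% of all genes. The reverse held in 1 (2.78%), the glutamate carrier Slc1a2, against 5.07%. These counts were made after the values were seen.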

How the data were processed

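The authors deposited linear intensity signals for every probe set of the 12 arrays. MAS5 is the program named per the submitters' processing notes; its settings: not given in the sources used here. A mean trimmed by 2% at each end was 100.001 on all arrays and the medians lay between 16.7 and 19.1. Per the labels' protocols, RNA was amplified in a double round before labelling, which shortens copies toward the 3′ end. Depth has no meaning for arrays: 2 arrays per part limit the precision.

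Of 45101 probe sets, 64 were controls, 34945 had 1 gene symbol, 932 several and 9160 none; 34741 matched the gene table by Entrez identifier. Each gene used its probe set with the highest mean, kept if above its array's median in at least 2 arrays. Signals became log2(signal + 4.43), adding 0.25 of the overall median signal (17.7), so differences of dim genes are understated. limma 3.58.1 in R 4.3.3 gave every slope, contrast and F test over all 12077 genes, with Benjamini-Hochberg adjustment; the scripts were tested on simulated data.

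The design text names 2 embryos. Deviations of same-numbered arrays correlated in all 15 pairs of parts (0.184 to 0.336, median 0.234), and the replicate number was taken as the embryo. The labels do not state this. The correlation cannot tell an embryo from anything else that same-numbered arrays share. Fits with no block ignore that pieces of 1 embryo are related, and p-values rest on 2 embryos. Replicate arrays correlated across genes with r of 0.951 to 0.980.

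The genes, pathway and marker lists and settings were chosen with earlier results of these data known. The text names genes that passed a test, those with the next smallest slope p up to 12, the brightest per family, up to 4 per pathway list by slope p, and others only as stated or as members described by role. Alternatives were offset, filter, normalization, probe set, variance trend, embryo block and arrays, parts or embryos left out.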

Additional observations from a re-analysis of the deposited data

How the results depend on the processing

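Of 793 comparisons of a named gene's value with an alternative setting, 749 kept direction and side of the threshold, 20 lost and 14 gained the call, and 10 reversed, all in uncalled values. Without 1 array at a time, 3 to 7 genes fell by slope, 2 to 6 were lower and 0 to 1 higher in part 6, and 1 to 3 passed the F test; fewest fell without replicate 1 of part 1 or replicate 2 of part 6. Without both arrays of part 6, 3 fell and 1 passed the F test, and without both of part 1, 1 passed it. Without replicate 1, 2 fell. With no filter 0 were higher in part 6. With the replicate block 1 rose (Slc7a2) and 7 fell, adding Slc6a8 and Slc36a4. With the mean over probe sets, 2 had both part 1 arrays above all others, an alternative added after seeing the data.

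Slopes that reversed were those of Slc6a6 (0.012 with the mean over probe sets), Slc36a1 (-0.017 without replicate 1 and -0.027 without replicate 2 of part 1, up to 0.030 without 1 array at a time, -0.10 without both, -0.00063 without replicate 2), Slc43a1 (-0.0032 without replicate 1 of part 1, -0.0054 without replicate 2 of part 2, -0.019 without both arrays of part 1, -0.0057 without replicate 2, 0.020 without replicate 1) and Slc7a1 (-0.0015 without both of part 1). Their cause was not tested. Over all genes, 1539 passed the slope test, 902 without part 1, 977 without part 6, and 400 and 568 with embryo 2 or embryo 1 alone. Signals near or below the array median carry no order.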
